A study of Mus musculus with 16 samples.

Results

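Chemokines are small secreted proteins that guide white blood cells along concentration gradients, and chemokine receptors are the G protein-coupled receptors that read them. The set described here holds every gene whose symbol starts with Ccl, Cxcl, Ccr or Cxcr and a digit, together with Xcl1, Xcr1, Cx3cl1 and Cx3cr1. It comes to 59 of the 55359 gene IDs in the files, 40 ligand genes (2 of them pseudogenes by symbol) and 19 receptor genes. In skin, keratinocytes, fibroblasts and resident macrophages release inflammatory chemokines after damage, and the signal of tumour necrosis factor (TNF) through NF-kB is one of the known inducers of several of them. Other members act without injury, holding lymphocytes, dendritic cells and stem cells in place.

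RNA sequencing was done on whole dorsal skin from male mice that were 8 weeks old. The labels give the hair cycle stage as telogen, in which follicles rest. KO mice lacked both TNF receptors, encoded by Tnfrsf1a and Tnfrsf1b, and WT mice carried both. The 4 groups were KO UVB, KO control, WT UVB and WT control, where UVB skin had a treatment labelled 3xUVB and control skin had none, with 4 libraries a group and 15644375 to 23200649 reads in genes per library. The UVB dose and timing, the strain and the deleted part of each receptor gene were not given in the sources used here. Whether each library is a different animal is not stated either, and all p-values rest on library-to-library spread, which may be technical. Levels are read counts scaled to library size (CPM, TMM-normalised) and given as mean ± SD or for libraries 1 to 4 in order. A fold change is a log2 value with its standard error, from edgeR's quasi-likelihood test on all 16 libraries. Unless another tool or set of libraries is named, calls are that test's genes with an adjusted p (Benjamini-Hochberg, over all 17531 genes tested) under 0.05, and "rose" and "fell" are used of called genes alone.

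Both receptor transcripts were present but lower in KO skin. Tnfrsf1a averaged 95.8 ± 6.78 CPM in KO UVB and 85.9 ± 5.42 in KO control skin, against 151 ± 8.87 in WT UVB and 143 ± 6.67 in WT control skin. For Tnfrsf1b the means were 20.1 ± 5.54, 20.8 ± 4.17, 40.9 ± 7.99 and 57.8 ± 13.4 CPM in the same order. The difference was called for both genes in KO against WT control skin, at -0.74 ± 0.07 (adjusted p = 5.43e-05) and -1.47 ± 0.21 (adjusted p = 0.00206). Tnf itself, the ligand, was called in no comparison and lay between 0.498 and 3.65 CPM over the 16 libraries.

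The KO UVB group was uneven. Its library 3 was the highest of all 16 for 15 of the 45 chemokine and receptor genes tested (33.3%, against 12.4% of all genes tested), and its library 1 was the lowest for 16 of them (35.6%, against 15.01%). The median coefficient of variation over 36 members named below was 57.5% in KO UVB, against 26.7% in KO control, 27.01% in WT UVB and 27.5% in WT control skin. KO UVB library 4 held less of the wound keratin Krt6a, at 237 CPM against 1598 to 1775 CPM in the other KO UVB libraries. A list of stress keratinocyte markers, Krt6a among them, summed to 1537 CPM in that library and 6012 to 6658 CPM in the other KO UVB libraries. The list summed to 1333 to 1961 CPM in WT UVB libraries, so library 4 lay in the WT UVB range and the other KO UVB libraries above it. For members called in KO UVB against KO control skin, the values without library 3, and without libraries 3 and 4 together, are therefore given as well.

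Of the 59 members, 45 passed the filter on low counts, 29 ligands and 16 receptors. Another 9 had reads but did not pass, and 5 had no reads in any library: Ccl21b, Ccl27b, Cxcl15 and the pseudogenes Ccl19-ps1 and Ccl19-ps3. A count of 0 allows up to 3 reads, which is 0.129 CPM in the deepest and 0.192 CPM in the shallowest library. Ccl21b, Ccl27b and the Ccl19 pseudogenes are near-identical to Ccl21a, Ccl27a and Ccl19, and STAR's gene counts leave out reads that map to more than 1 place, so the levels of these genes are uncertain. The share of reads recorded as mapping to more than 1 place was 0% in every library, so how such reads were handled here is not known.

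After UVB, the members called in KO skin were mostly higher and those called in WT skin mostly lower. In KO skin 12 of the 45 members were called, against a background of 32.3% of all genes tested. Of these 11 rose (background 17.2%) and 1 fell (15.1%), and the risers were 8 ligand genes and 3 receptor genes. In WT skin 7 were called, against a background of 18.8%, of which 1 rose (10.2%) and 6 fell (8.60%), and those that fell were Cxcl12, Cxcl13, Cxcl14, Ccl21a and the receptors Cxcr6 and Ccr10. Libraries of the compared groups did not overlap for 5 members in KO skin (25.1% of all genes tested), 4 higher (13.6%) and 1 lower (11.5%) after UVB, and for 11 in WT skin (28.2%), 4 higher (15.1%) and 7 lower (13.1%). Cxcr2 was the one gene called in both, 8.33% of the KO calls and 14.3% of the WT calls. The matching shares over all genes are not given here. A call in only 1 genotype does not show that the genotypes differed, and the interaction described below was called for none of the 45 members by edgeR. Neither 12 of 45 nor 7 of 45 is a larger share than that among all genes. The median log2 fold change of the 45 members was 0.26 in KO skin, where that of all genes was -0.02, and -0.26 in WT skin, where that of all genes was -0.03. In bulk skin, fewer cells of a type and less RNA per cell cannot be told apart.

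Leaving out KO UVB library 3 reduced the KO calls to 6, of which 4 rose and 2 fell, and leaving out libraries 3 and 4 gave 11, of which 2 rose and 9 fell. The KO median of the 45 members was then 0.07 and -0.27 (-0.02 and -0.06 over all genes). Of the KO UVB libraries, 3 and 4 were the highest of all 16 for the most members, 15 and 7 of the 45. Leaving out both was thus bound to lower the values, and no other pair of libraries was left out together. The KO median moved the other way without KO UVB library 1, to 0.49, and without library 2, to 0.39 (-0.003 and 0.002 over all genes). Limma voom with sample quality weights called 14, of which 7 rose and 7 fell. The share of all genes called by limma voom or with libraries left out is not given here, so those counts have no background beside them. Scaling by library totals called 10 members, of which 9 rose and 1 fell, and 5799 of all 17531 genes, 2350 higher and 3449 lower. That scaling also lowered the share of higher genes among all calls to 40.5% in KO and 34.2% in WT skin, against 53.1% and 54.2% with TMM.

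**Figure D1:**
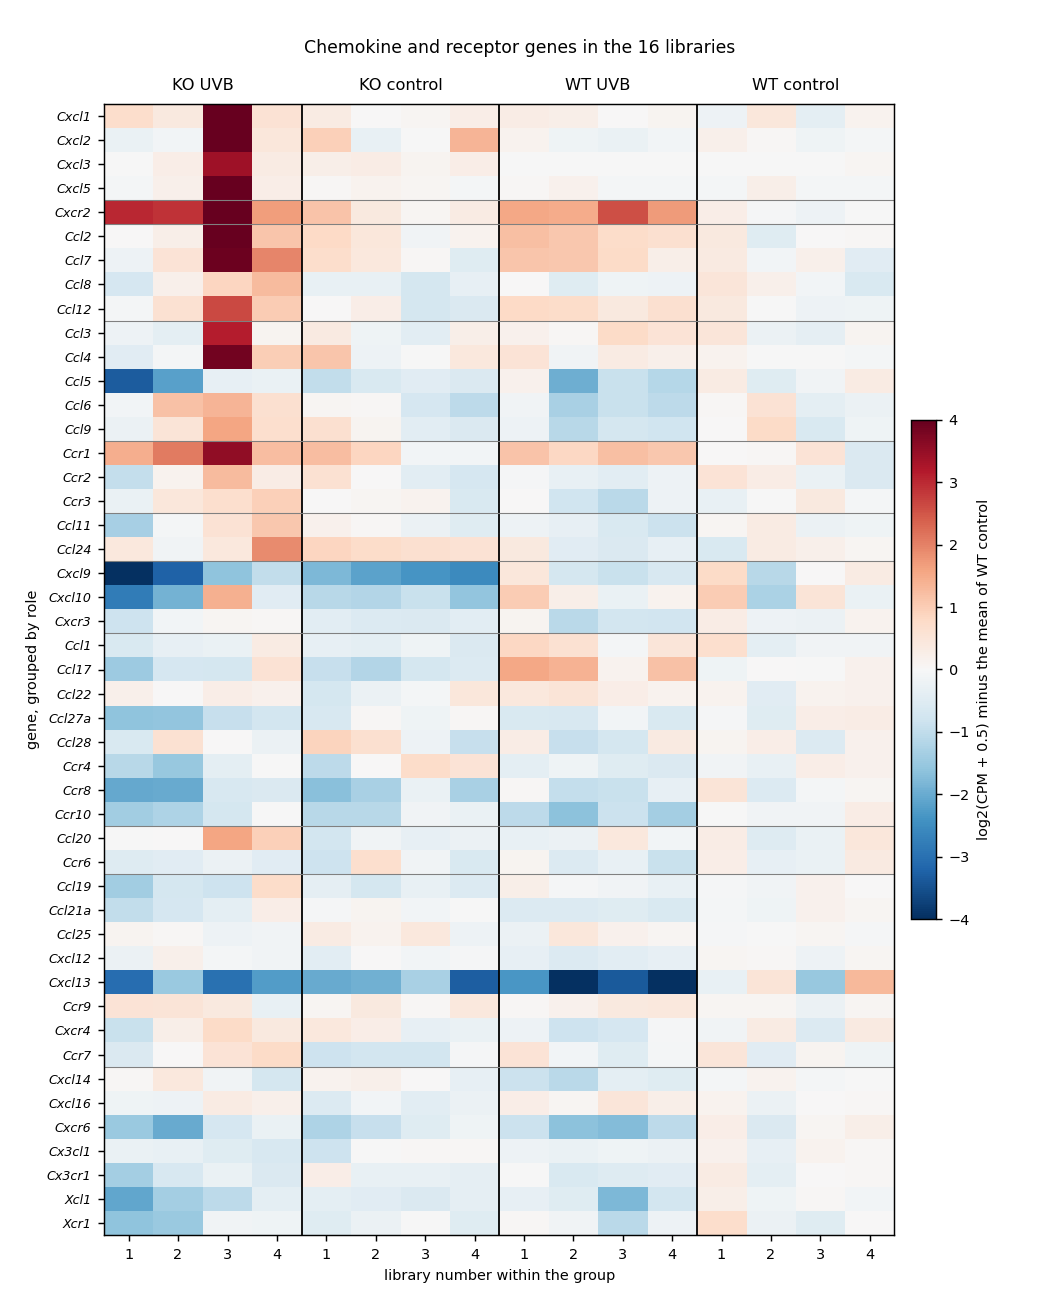
Each row is a chemokine or receptor gene (genes that passed the filter, with Cxcl2, Cxcl3 and Cxcl5), grouped by role between grey lines, and each column is a library; colour gives log2(CPM + 0.5) minus the mean of the 4 WT control libraries. KO UVB library 3 is the darkest red column for Cxcl1, Ccl2, Ccl7 and Ccl12, while Ccl8 is highest in KO UVB library 4. The Cxcl13 row is blue in every KO UVB, KO control and WT UVB library.

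The ligands that recruit neutrophils through Cxcr2 were abundant in a single library. These are Cxcl1, Cxcl2, Cxcl3 and Cxcl5, CXC ligands with the glutamate-leucine-arginine motif in front of the first cysteines. Cxcl1 stood at 0.846, 0.571, 14.5 and 0.729 CPM in KO UVB and 0.535, 0.339, 0.373 and 0.499 CPM in KO control libraries. It stood at 0.508, 0.474, 0.339 and 0.389 CPM in WT UVB and 0.223, 0.620, 0.131 and 0.403 CPM in WT control libraries. KO UVB library 3 was far above all others, while the remaining KO UVB libraries reached at most 0.846 CPM and lay just above KO control skin. Cxcl1 rose in KO skin at 3.26 ± 0.92 (adjusted p = 0.0137), but without KO UVB library 3 the value was 0.73 ± 0.38 (adjusted p = 0.172), and without 3 and 4 it was 0.71 ± 0.45 (adjusted p = 0.239). In WT skin UVB gave 0.37 ± 1.11 (adjusted p = 0.845).

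Cxcl2, Cxcl3 and Cxcl5 did not pass the filter and are given as reads. Cxcl5 had 0, 2, 874 and 3 reads in KO UVB libraries and 1, 2, 1 and 0 in KO control libraries, and at most 2 in any WT library. Cxcl2 had 1, 2, 651 and 9 reads in KO UVB and 16, 1, 3 and 22 in KO control libraries, and 1 to 6 in the WT libraries. Cxcl3 had 0, 2, 105 and 3 reads in KO UVB and 2, 3, 1 and 2 in KO control libraries, and at most 1 in any WT library. KO UVB library 3 thus held 69.2% of all Cxcl1 reads in the series, 89.3% of Cxcl2, 88.2% of Cxcl3 and 98.4% of Cxcl5, and no other library had more than 22 reads of any of them. With every gene of at least 1 read tested, edgeR called Cxcl5 in KO UVB against KO control (adjusted p = 0.0413) but not Cxcl2 (0.133) or Cxcl3 (0.172), and that one library carries the Cxcl5 value.

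The promoters of Cxcl1, Cxcl2, Cxcl3 and Ccl20 are shown as examples of ligands that were highest in KO UVB library 3 and hold a motif of the kind that NF-kB binds. The motif searched was GGNNTTTCC on either strand, and in the sequences below, the 250 bases before each gene's start on the forward strand (RefSeq, build GRCm38.p6), its matches are in capitals. The windows are Cxcl1 at chr5:90890995-90891244, Cxcl2 at chr5:90903649-90903898, Cxcl3 at chr5:90785851-90786100 and Ccl20 at chr1:83116516-83116765.
Cxcl1: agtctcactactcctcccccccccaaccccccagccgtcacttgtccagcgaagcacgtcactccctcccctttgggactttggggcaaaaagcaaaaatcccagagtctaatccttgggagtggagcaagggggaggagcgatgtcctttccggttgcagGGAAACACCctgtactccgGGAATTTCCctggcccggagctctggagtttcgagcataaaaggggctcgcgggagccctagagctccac
Cxcl2: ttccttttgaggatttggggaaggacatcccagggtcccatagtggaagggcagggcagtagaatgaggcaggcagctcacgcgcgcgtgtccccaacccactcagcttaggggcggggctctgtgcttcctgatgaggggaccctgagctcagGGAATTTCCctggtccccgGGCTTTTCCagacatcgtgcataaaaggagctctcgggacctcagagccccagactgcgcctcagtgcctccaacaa
Cxcl3: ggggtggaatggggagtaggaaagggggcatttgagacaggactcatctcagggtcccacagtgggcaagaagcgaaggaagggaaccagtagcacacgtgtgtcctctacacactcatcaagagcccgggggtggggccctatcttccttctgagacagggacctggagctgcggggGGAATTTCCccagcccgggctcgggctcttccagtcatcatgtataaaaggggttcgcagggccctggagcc
Ccl20: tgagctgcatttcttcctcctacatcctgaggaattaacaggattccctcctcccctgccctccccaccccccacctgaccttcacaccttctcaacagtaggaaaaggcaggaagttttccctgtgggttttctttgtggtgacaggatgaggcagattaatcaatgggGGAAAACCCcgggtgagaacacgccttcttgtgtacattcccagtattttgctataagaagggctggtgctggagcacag
The matches begin 89 and 70 bases before the start of Cxcl1, 96 and 77 before Cxcl2, 72 before Cxcl3 and 80 before Ccl20. Cxcl1, Cxcl2 and Cxcl3 each hold GGAATTTCC on the printed strand. Windows of 250 bases before and 50 after the start were at hand for 42 member genes. The motif was in 8 of their 49 windows and in 5.82% of all 32851 windows. Besides the genes shown, Ccl9, Cxcl10, Ccr3 and Cxcl9 held it. Of these, Ccl9 and Cxcl10 were highest in KO UVB library 3, and Ccr3 and Cxcl9 were not. Ccl3 and Ccr2 were highest in that library and had windows without a match. A motif of the interferon response, GAAANNGAA on either strand, was in 8 of the 49 member windows, those of Cxcl9 and Cxcl10 among them, and in 8.56% of all windows. A match of letters does not show that a factor bound there.

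Cxcr2, the receptor for these ligands on neutrophils, was higher after UVB in both genotypes. It stood at 7.42, 6.68, 31.7 and 2.60 CPM in KO UVB and 1.65, 0.763, 0.532 and 0.721 CPM in KO control libraries. In WT skin it stood at 2.31, 2.18, 5.33 and 2.67 CPM in UVB and 0.670, 0.434, 0.350 and 0.448 CPM in control libraries. UVB and control libraries did not overlap in either genotype, with KO UVB library 3 the highest. Cxcr2 rose by 3.71 ± 0.66 (adjusted p = 0.000834) in KO skin, and by 2.59 ± 0.43 (adjusted p = 0.000921) without library 3 or 2.93 ± 0.39 (adjusted p = 0.000117) without 3 and 4. All 25 alternatives that tested this gene kept the KO call. In WT skin it rose by 2.69 ± 0.72 (adjusted p = 0.0170), a call that ended without WT UVB library 3 (adjusted p = 0.0544). DESeq2 also called Cxcr2 higher in KO UVB than in WT UVB skin (1.95 ± 0.57, adjusted p = 0.0246), which edgeR did not. Without KO UVB library 3, edgeR gave 0.83 ± 0.40 for that difference (adjusted p = 0.430). Cxcr1, the related receptor, had 16 reads in all.

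Markers of neutrophils moved with these genes in KO UVB library 3. Summed over 14 neutrophil markers, Cxcr2 left out, the level was 57.0, 76.8, 425 and 72.0 CPM in KO UVB and 33.7 to 55.9 CPM in KO control libraries. It was 28.0 to 64.4 CPM in WT UVB and 31.6 to 43.5 CPM in WT control libraries. Of the 11 markers tested 10 rose in KO skin (17.2% of all genes), and in WT skin 2 rose and 1 fell (10.2% and 8.60%). Without KO UVB library 3 the KO count was 3 that rose and 1 that fell. S100a9, a calcium-binding protein of neutrophils and stressed keratinocytes, was at 167 CPM in KO UVB library 3, and Csf3r, the receptor for the neutrophil growth factor, at 52.9 CPM. Ly6g, a defining mouse neutrophil marker, was at 0 in every WT library and at 0.231 CPM in KO UVB library 3. The granule gene Ngp was at 0.0462 CPM there and at 0 in the other KO libraries. The part of neutrophil RNA in the levels of the ligands was not tested.

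**Figure D2:**
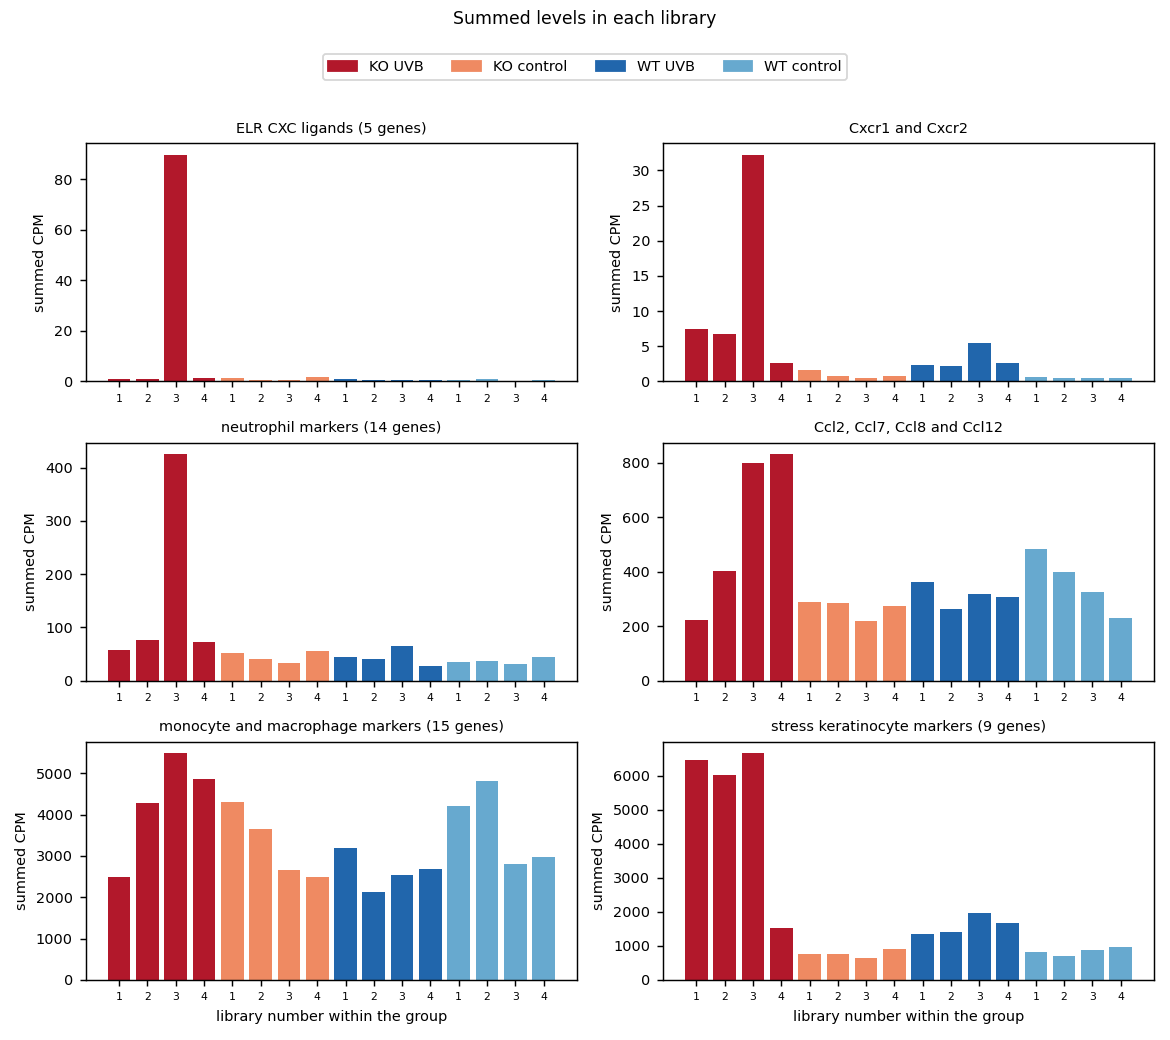
Bars give summed CPM in each of the 16 libraries for the CXC ligands that recruit neutrophils (Cxcl1, Cxcl2, Cxcl3, Cxcl5 and Cxcl15), their receptors Cxcr1 and Cxcr2, the ligands that draw monocytes (Ccl2, Ccl7, Ccl8 and Ccl12), and 3 marker lists. KO UVB library 3 stands at 89.8 CPM of these CXC ligands, where no other library exceeds 1.83 CPM, and it also has the tallest bars for the receptors and the neutrophil markers. KO UVB library 4 has few stress keratinocyte transcripts beside the other KO UVB libraries, at a level within the WT UVB range.

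Ligands that draw monocytes, mostly through Ccr2, were higher in KO UVB than in KO control skin: all 4 of Ccl2, Ccl7, Ccl8 and Ccl12 rose, and none was called in WT skin with all 16 libraries. Ccl2 stood at 4.03, 4.74, 72.3 and 9.06 CPM in KO UVB and 7.19, 5.68, 3.51 and 4.44 CPM in KO control libraries. It was at 9.74, 9.01, 6.88 and 6.4997 CPM in WT UVB and 5.41, 2.73, 4.02 and 4.12 CPM in WT control libraries. KO UVB libraries 1 and 2 lay within the KO control range, whereas all WT UVB libraries lay above all WT control libraries. Ccl2 rose by 2.11 ± 0.72 (adjusted p = 0.0357) in KO skin. Without library 3 the value was 0.20 ± 0.30 (adjusted p = 0.659), and without libraries 3 and 4 it was -0.25 ± 0.29 (adjusted p = 0.531). UVB gave 0.97 ± 0.72 in WT skin (adjusted p = 0.373), which was called once KO UVB library 3 was left out of the shared fit.

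Ccl7 ranked the KO UVB libraries in the same order, at 5.13, 8.84, 95.7 and 24.2 CPM in KO UVB and 9.87, 8.01, 6.12 and 4.10 CPM in KO control skin. In WT skin it stood at 13.2, 12.9, 10.5 and 7.06 CPM in UVB and 7.69, 5.46, 6.86 and 4.21 CPM in control libraries. It rose by 2.25 ± 0.67 (adjusted p = 0.0194) in KO skin, with 0.86 ± 0.42 (adjusted p = 0.141) left without library 3 and -0.02 ± 0.35 (adjusted p = 0.977) without 3 and 4. In WT skin UVB gave 0.85 ± 0.67 (adjusted p = 0.401), which was called without KO UVB libraries 3 and 4 (0.85 ± 0.28, adjusted p = 0.0424). The KO call for Ccl7 also ended without KO control library 3 (adjusted p = 0.0513) or 4 (0.0502), and that for Ccl2 without KO control library 2 (0.0723), 3 (0.0911) or 4 (0.0739). Ccl12, a mouse ligand of Ccr2, was at 3.09, 5.19, 22.9 and 7.10 CPM in KO UVB and 3.26, 4.03, 1.81 and 2.00 CPM in KO control libraries. It rose by 1.78 ± 0.48 (adjusted p = 0.0104), and by 0.88 ± 0.30 (adjusted p = 0.0403) without library 3, but the value without 3 and 4 was 0.56 ± 0.31 (adjusted p = 0.182). In WT skin Ccl12 libraries did not overlap, at 6.04, 5.74, 4.41 and 5.39 CPM in UVB and 4.38, 3.22, 2.75 and 2.87 CPM in control libraries, but the change of 0.71 ± 0.47 was not called (adjusted p = 0.315).

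Ccl8, which acts on Ccr8 in the mouse, was highest in KO UVB library 4 rather than 3. It stood at 209.6, 385, 607 and 793 CPM in KO UVB and 269.9, 268, 206 and 262 CPM in KO control libraries. In WT skin the levels were 333, 235, 295 and 289.9 CPM in UVB and 467, 386, 311 and 218 CPM in control libraries. Ccl8 rose by 0.99 ± 0.31 (adjusted p = 0.0243) in KO skin, a call that ended without KO UVB library 4 (adjusted p = 0.0764) or KO control library 3 (0.0708). Without KO UVB library 3 the value was 0.89 ± 0.33 (adjusted p = 0.0596), and without 3 and 4 it was 0.24 ± 0.27 (adjusted p = 0.506). Its receptor gene Ccr8 averaged 0.722 ± 0.649 CPM in KO UVB, 0.825 ± 0.633 in KO control, 1.46 ± 0.662 in WT UVB and 2.30 ± 0.846 in WT control skin. Ccr8 was called in no comparison with all libraries, and was called lower in KO UVB against KO control skin without KO UVB libraries 3 and 4, at -2.30 ± 0.82 (adjusted p = 0.0464).

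**Figure D3:**
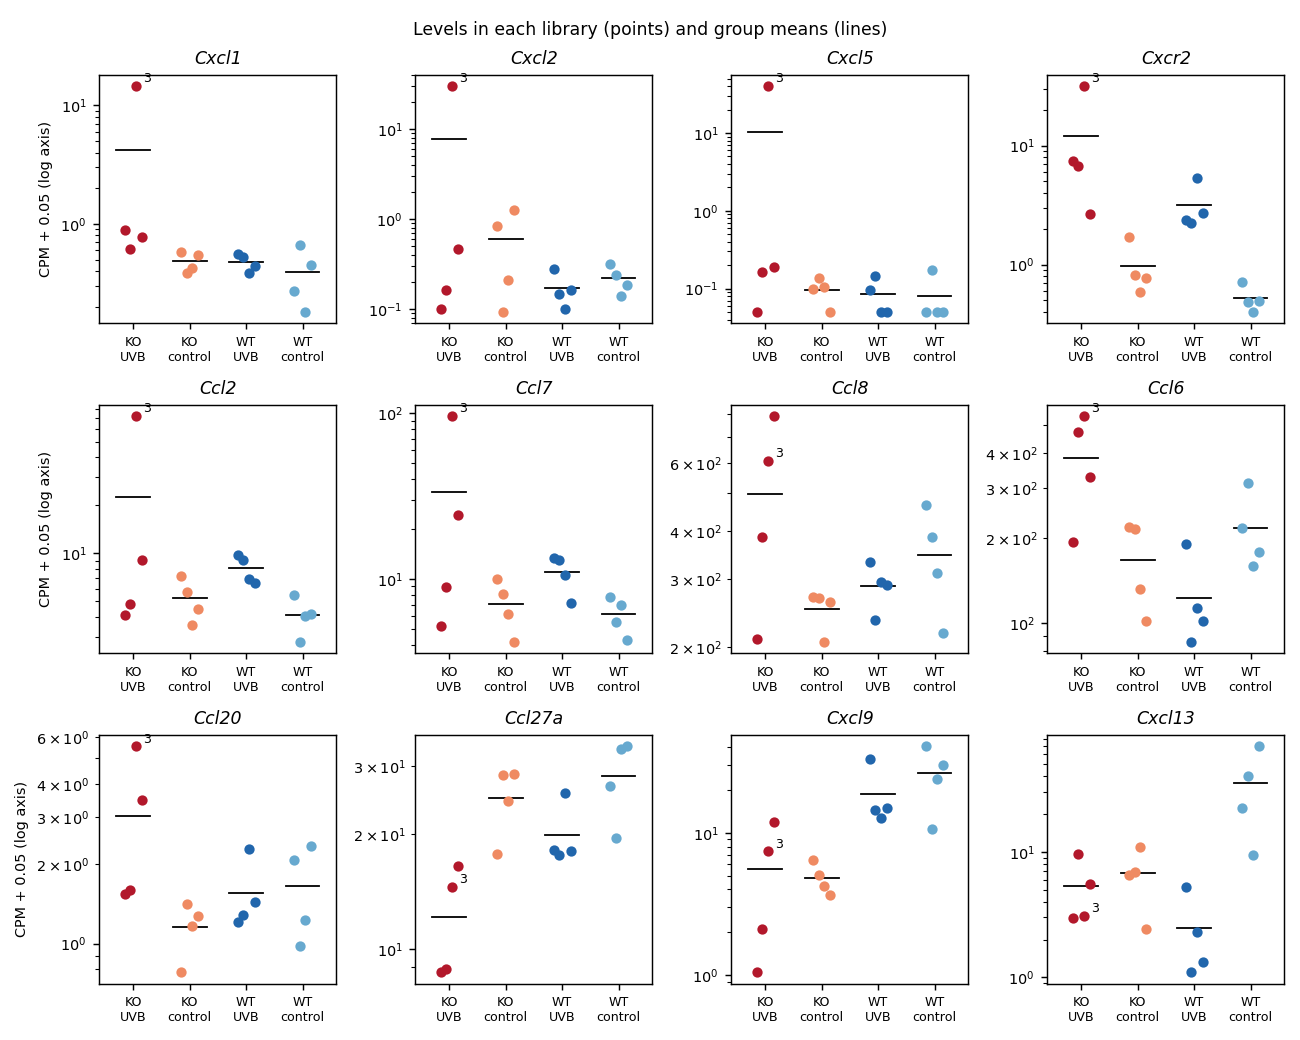
Points are the level of 12 members in each library as CPM + 0.05 on a log axis that differs between panels, lines are group means, and the digit 3 marks KO UVB library 3. That point stands alone for Cxcl1, Cxcl2 and Cxcl5, while for Ccl27a all 4 KO UVB points lie below all 4 KO control points and for Cxcl13 the WT control points are the highest as a group.

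Ccl6 was the one member called in KO UVB against WT UVB skin. Ccl6 and Ccl9 are related rodent ligands of Ccr1 made by macrophages and other myeloid cells. Ccl6 stood at 194, 472, 539.5 and 329 CPM in KO UVB libraries, all above the WT UVB libraries at 191, 85.7, 113 and 102 CPM. Control libraries were at 219, 214, 132 and 102 CPM in KO and 218, 312, 159 and 179 CPM in WT skin. Ccl6 rose in KO UVB against WT UVB by 1.64 ± 0.35 (adjusted p = 0.0368), where 0.856% of all genes were called, 0.496% higher and 0.359% lower. That call was lost when any of 6 libraries was left out: KO UVB library 2 (adjusted p = 0.0900) and 3 (0.107), WT UVB library 2 (0.130), 3 (0.0800) and 4 (0.0988), and WT control library 1 (0.0534). It also rose with UVB in KO skin by 1.20 ± 0.34 (adjusted p = 0.0147), and by 0.999 ± 0.35 (adjusted p = 0.0464) without library 3, with 0.999 ± 0.40 (adjusted p = 0.0762) without 3 and 4. The WT value was -0.82 ± 0.34 (adjusted p = 0.106), called lower by limma voom (-0.87 ± 0.28, adjusted p = 0.0305).

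Ccl9 had values in the same directions and was not called by edgeR in any comparison. It averaged 172 ± 91.4 CPM in KO UVB, 101 ± 40.3 in KO control, 63.0 ± 17.2 in WT UVB and 107 ± 45.01 in WT control skin, with 1.45 ± 0.38 (adjusted p = 0.0782) in KO UVB against WT UVB. DESeq2 called that difference (adjusted p = 0.00467), and limma voom called it (adjusted p = 0.0208) and the KO change after UVB, at 0.84 ± 0.31 (adjusted p = 0.0377). The monocyte and macrophage list, 15 genes such as Csf1r and Adgre1 with none at 0 in all libraries, summed to 2499 to 5490.3 CPM in KO UVB and 2482 to 4302 CPM in KO control libraries. It summed to 2117 to 3182 CPM in WT UVB and 2799 to 4822 CPM in WT control libraries. Of its 15 genes 1 rose in KO skin (17.2% of all genes) and 1 fell in WT skin (8.60%) after UVB, and none was called in KO UVB against WT UVB by edgeR. The median log2 fold change of the 15 was 0.38 in KO and -0.52 in WT skin after UVB (-0.02 and -0.03 over all genes). In KO UVB against WT UVB skin it was 0.75 (0.01 over all genes), so these medians had the signs of the Ccl6 values. The part of macrophage RNA in the Ccl6 values was not tested.

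Ccr1, the receptor for Ccl3, Ccl5, Ccl6, Ccl7 and Ccl9 on myeloid cells, rose in KO skin. It stood at 9.95, 15.4, 43.9 and 8.43 CPM in KO UVB and 8.41, 6.44, 2.98 and 2.99 CPM in KO control libraries. In WT skin it was at 7.84, 6.26, 8.29 and 7.4996 CPM in UVB and 3.31, 3.41, 4.98 and 2.02 CPM in control libraries. UVB libraries lay above control libraries in both genotypes, in KO skin by the narrow margin of libraries 4 and 1. The KO change was 1.89 ± 0.48 (adjusted p = 0.00742), 1.11 ± 0.35 (adjusted p = 0.0282) without library 3 and 1.27 ± 0.37 (adjusted p = 0.0198) without 3 and 4, and all 26 alternatives kept the call. The WT change of 1.12 ± 0.49 was not called (adjusted p = 0.122), but it was called once KO UVB library 3 was left out of the shared fit, at 1.13 ± 0.34 (adjusted p = 0.0293), and by limma voom, at 1.26 ± 0.42 (adjusted p = 0.0360).

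Ccr2 and Ccr3 were not called by edgeR in any comparison. Ccr2, the receptor that brings monocytes into tissue, averaged 119 ± 72.6 CPM in KO UVB, 88.4 ± 35.7 in KO control, 76.4 ± 8.90 in WT UVB and 94.5 ± 33.0 in WT control skin. Ccr3, the eosinophil receptor, averaged 2.74 ± 1.05, 1.67 ± 0.452, 1.16 ± 0.563 and 1.80 ± 0.467 CPM in the same order, and was called higher in KO UVB than in WT UVB skin by DESeq2 (1.25 ± 0.37, adjusted p = 0.0302) and limma voom.

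Among ligands of Ccr1, Ccl3 was at 0.199, 0.114, 6.56 and 0.364 CPM in KO UVB and 0.535, 0.212, 0.106 and 0.444 CPM in KO control libraries, and again library 3 was alone. The KO value of Ccl3 was 2.49 ± 1.01 (adjusted p = 0.0714), against -0.46 ± 0.65 (adjusted p = 0.638) without library 3. Ccl5, a ligand made largely by T cells, was at 0.149, 0.9699, 4.76 and 5.01 CPM in KO UVB and 2.82, 3.77, 4.31 and 3.94 CPM in KO control libraries, with library 1 lowest. It gave -0.43 ± 0.64 in KO (adjusted p = 0.643) and -0.88 ± 0.62 in WT skin (adjusted p = 0.347). It was called lower in KO skin without KO UVB libraries 3 and 4, at -2.76 ± 0.72 (adjusted p = 0.0107), and limma voom called it lower in KO (-1.79 ± 0.65, adjusted p = 0.0372) and in WT skin (-1.21 ± 0.43, adjusted p = 0.0474). Ccl4, named after its values were seen, reached 11.4 CPM in KO UVB library 3 and at most 1.26 CPM in any other library (2.43 ± 0.98, adjusted p = 0.0686).

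The eotaxins, which attract eosinophils through Ccr3, were not called. Ccl11 averaged 43.7 ± 26.4 CPM in KO UVB, 32.4 ± 6.33 in KO control, 24.9 ± 5.03 in WT UVB and 35.5 ± 6.55 in WT control skin. Ccl24 averaged 16.6 ± 11.9, 14.9 ± 1.26, 7.83 ± 2.79 and 9.19 ± 2.44 CPM in that order, and all KO control libraries lay above all WT control libraries (0.70 ± 0.37, adjusted p = 0.530). Ccl26 had 6 reads in all.

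Ccl20, an epithelial ligand that attracts cells carrying Ccr6, rose in KO skin, with libraries 3 and 4 the highest. It stood at 1.49, 1.54, 5.49 and 3.42 CPM in KO UVB and 0.729, 1.36, 1.12 and 1.22 CPM in KO control libraries, which did not overlap. In WT skin it was at 1.15, 1.23, 2.23 and 1.39 CPM in UVB and 2.01, 0.930, 1.18 and 2.28 CPM in control libraries, which did. The KO change was 1.43 ± 0.41 (adjusted p = 0.0153), with 0.97 ± 0.37 (adjusted p = 0.0679) without library 3 and 0.45 ± 0.38 (adjusted p = 0.382) without 3 and 4. Ccr6 averaged 1.14 ± 0.134, 1.54 ± 1.03, 1.19 ± 0.499 and 1.73 ± 0.536 CPM in KO UVB, KO control, WT UVB and WT control skin and was called in no comparison.

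Ccl27a, a keratinocyte ligand that attracts T cells carrying Ccr10 to skin, was the one member that fell with UVB in KO skin. It stood at 8.66, 8.84, 14.5 and 16.4 CPM in KO UVB and 17.6, 28.5, 24.4 and 28.6 CPM in KO control libraries. In WT skin it was at 18.1, 17.5, 25.5 and 18.1 CPM in UVB and 26.6, 19.5, 33.2 and 33.8 CPM in control libraries. Every KO UVB library lay below every KO control library and also below every WT UVB library. The KO change was -1.03 ± 0.23 (adjusted p = 0.00403), and all 26 alternatives kept the call, with -1.12 ± 0.25 without library 3 and -1.50 ± 0.25 without 3 and 4. The WT change was -0.52 ± 0.23 (adjusted p = 0.129) and the difference between KO UVB and WT UVB was -0.70 ± 0.23 (adjusted p = 0.149). Limma voom called both, at -0.58 ± 0.17 (adjusted p = 0.0215) and -0.93 ± 0.22 (adjusted p = 0.0232), and the difference was also called without KO UVB libraries 3 and 4.

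Ccr10, the receptor for Ccl27a and Ccl28, fell in WT skin instead. It stood at 0.323, 0.0474, 0.436 and 0.167 CPM in WT UVB and 1.21, 1.05, 1.05 and 1.61 CPM in WT control libraries. In KO skin it was at 0.149, 0.228, 0.554 and 1.18 CPM in UVB and 0.292, 0.297, 1.06 and 0.943 CPM in control libraries, which overlapped. The WT change was -2.30 ± 0.62 (adjusted p = 0.0176) on 219 reads over the series. It was no longer called when WT UVB library 2 was left out (adjusted p = 0.0535), nor when library 4 was (0.0523). Over the alternatives its WT change ran from -2.72 to -0.98, the last of these with unstranded counts. Ccl28, the mucosal ligand of Ccr10 and Ccr3, averaged 1.19 ± 0.626, 1.51 ± 1.02, 1.04 ± 0.675 and 1.21 ± 0.376 CPM in KO UVB, KO control, WT UVB and WT control skin and was not called.

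Ccl22, a dendritic cell ligand of Ccr4, averaged 10.9 ± 0.723, 9.11 ± 3.15, 12.4 ± 1.54 and 9.82 ± 1.92 CPM in the same order and was not called. Ccl17, the other Ccr4 ligand, named after its values were seen, was at 0.149, 0.628, 0.600 and 2.19 CPM in KO UVB and 4.66, 4.17, 1.45 and 3.4998 CPM in WT UVB libraries. Control libraries of Ccl17 were at 0.437, 0.297, 0.586 and 0.721 CPM in KO and 1.07, 1.30, 1.27 and 1.52 CPM in WT skin. All KO control libraries lay below all WT control libraries, and with UVB library 4 of KO skin overlapped with library 3 of WT skin. Ccl17 gave -1.35 ± 0.57 (adjusted p = 0.372) in control and -1.93 ± 0.51 (adjusted p = 0.0798) in UVB skin. The UVB difference was called by DESeq2 (adjusted p = 0.0127), by limma voom (0.0100) and without KO UVB libraries 3 and 4 (0.0114), and each of these also called Ccl17 higher in WT UVB than in WT control skin.

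Cxcl9 was the one member called in KO control against WT control skin, where 1.69% of all genes were called, 0.416% higher and 1.28% lower. Cxcl9, Cxcl10 and Cxcl11 are interferon-inducible ligands of Cxcr3, a receptor of activated T and NK cells. Cxcl9 stood at 6.42, 5.001, 4.21 and 3.605 CPM in KO control and 40.6, 10.7, 23.9 and 30.2 CPM in WT control libraries. After UVB it was at 0.995, 2.05, 7.39 and 11.8 CPM in KO and 32.8, 14.5, 12.6 and 14.999 CPM in WT libraries. KO libraries lay below WT libraries in both conditions. Cxcl9 fell in KO control skin, at -2.45 ± 0.59 (adjusted p = 0.0480), and the UVB value was -1.73 ± 0.57 (adjusted p = 0.150), called by limma voom (-2.67 ± 0.63, adjusted p = 0.0232) and without KO UVB libraries 3 and 4 (-3.63 ± 0.62, adjusted p = 0.0114). The control call was kept by 13 of 26 alternatives and ended without 9 of the 16 libraries in turn: each KO control library (adjusted p = 0.0888, 0.106, 0.139 and 0.135 for 1 to 4), WT control library 1 (0.150), 3 (0.0798) or 4 (0.115), and WT UVB library 2 (0.0554) or 4 (0.0604).

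Cxcl10 was at 3.40, 3.18, 4.05 and 2.33 CPM in KO control and 16.5, 2.98, 11.4 and 6.496 CPM in WT control libraries, which overlapped (-1.53 ± 0.76, adjusted p = 0.493). After UVB it stood at 0.697, 1.77, 22.1 and 5.56 CPM in KO libraries, with library 3 highest, and 16.5, 9.25, 6.49 and 8.67 CPM in WT libraries, and without KO UVB libraries 3 and 4 the difference was called at -3.07 ± 0.67 (adjusted p = 0.0365). Cxcr3 averaged 5.88 ± 1.65, 4.58 ± 0.278, 4.39 ± 1.92 and 6.72 ± 1.35 CPM in KO UVB, KO control, WT UVB and WT control skin, and every KO control library lay below every WT control library (-0.56 ± 0.26, adjusted p = 0.455). Cxcl11, annotated as a polymorphic pseudogene, had 91 reads in all. Of 19 genes of the interferon gamma response outside the chemokines, edgeR called none in any comparison, and their median was -0.34 in KO control against WT control skin. Without KO UVB libraries 3 and 4, 11 of the 19 were called lower in KO UVB against KO control skin, a count with no background given beside it.

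Over all members, 6 of 45 did not overlap between KO control and WT control libraries, against 7.68% of all genes, 1 higher (3.05%) and 5 lower (4.63%) in KO. In KO UVB against WT UVB skin 7 did not overlap, against 8.16% of all genes, 4 higher (4.27%) and 3 lower (3.89%) in KO. The median of the members was -0.16 in the control comparison and 0.38 in the UVB comparison, where that of all genes was 0.00 and 0.01. Without KO UVB library 3 the median in the UVB comparison was 0.12, and without 3 and 4 it was -0.26. It was 0.54 without KO UVB library 1 and 0.40 without library 2.

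Cxcl13, a ligand that organises B cell follicles through Cxcr5, fell in WT skin after UVB. It stood at 5.17, 1.04, 2.23 and 1.28 CPM in WT UVB and 22.4, 40.0, 9.40 and 69.6 CPM in WT control libraries, which did not overlap. In KO skin it was at 2.94, 9.64, 3.05 and 5.46 CPM in UVB and 6.51, 6.91, 10.9 and 2.38 CPM in control libraries. The WT control libraries were the high ones as a group, though their library 3 lay below KO control library 3. The WT change was -3.84 ± 0.67 (adjusted p = 0.00124) and all 26 alternatives kept the call, while the KO change was -0.35 ± 0.62 (adjusted p = 0.697). KO control against WT control skin gave -2.40 ± 0.62 (adjusted p = 0.0696), which DESeq2 called. Its receptor Cxcr5 had 8 reads in all.

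Transcripts of the growing hair follicle were also highest in WT control skin. They fell after UVB in KO skin as well, where Cxcl13 was not called. Cxcl9 was not called after UVB in WT skin, where these transcripts fell. The anagen list of 19 genes, such as the hair keratins Krt33b and Krt81, summed to 14.2 to 21.1 CPM in KO UVB, 64.9 to 199 in KO control, 17.8 to 119.7 in WT UVB and 740.5 to 1999.8 CPM in WT control libraries. With UVB 18 of 19 fell in KO (15.1% of all genes) and 19 of 19 in WT skin (8.60%), and 15 of 19 were lower in KO control than in WT control skin (1.28%). None was at 0 in all libraries, although the skin is labelled telogen. Of 5 B and plasma cell markers tested, none was called after UVB in KO skin, 3 fell after UVB in WT skin (8.60% of all genes), and 2 fell in KO control against WT control skin (1.28%). Their median log2 fold change was -1.30 in KO and -1.29 in WT skin after UVB, where Cxcl13 gave -0.35 ± 0.62 and -3.84 ± 0.67. Their summed level was 51.3 to 141 CPM in KO UVB, 84.3 to 109 in KO control, 47.9 to 87.8 in WT UVB and 79.7 to 136 CPM in WT control libraries. The part of hair cycle stage or of B cell RNA in the Cxcl13 and Cxcl9 values was not tested.

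Cxcl12, a stromal ligand that keeps leukocytes and stem cells in their niches through Cxcr4, fell in WT skin. It stood at 182, 154, 170.2 and 180.2 CPM in WT UVB and 240.4, 234, 199.8 and 239 CPM in WT control libraries. KO libraries were at 195, 264, 215 and 206 CPM in UVB and 171, 229, 211 and 223 CPM in control skin, and overlapped. The WT change was small, -0.41 ± 0.11 (adjusted p = 0.0183), and was lost when any of 3 libraries was left out: WT UVB library 2 (adjusted p = 0.0749), WT UVB library 3 (0.0585) and WT control library 1 (0.0643). The KO change was 0.08 ± 0.11 (adjusted p = 0.618). DESeq2 and limma voom called Cxcl12 higher in KO UVB than in WT UVB skin, at 0.36 ± 0.11 (adjusted p = 0.0475) and 0.49 ± 0.10 (adjusted p = 0.00947). Cxcr4 averaged 16.2 ± 6.78, 14.2 ± 3.74, 10.2 ± 2.73 and 14.1 ± 4.15 CPM in KO UVB, KO control, WT UVB and WT control skin and was not called.

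Ccl21a, the lymphatic vessel ligand that guides Ccr7-bearing dendritic cells to lymph nodes, was at 57.4, 57.5, 59.9 and 55.2 CPM in WT UVB and 80.5, 74.7, 94.4 and 90.2 CPM in WT control libraries. KO libraries were at 42.8, 53.1, 65.0 and 103 CPM in UVB and 81.2, 91.9, 78.4 and 84.0 CPM in control skin, where KO UVB library 4 was the highest and library 1 the lowest. The KO change was -0.35 ± 0.19 (adjusted p = 0.169), but -0.80 ± 0.11 (adjusted p = 0.000156) without KO UVB libraries 3 and 4 and -0.54 ± 0.13 (adjusted p = 0.00333) with limma voom, both of them called. Ccl21a fell in WT skin, at -0.56 ± 0.19 (adjusted p = 0.0470), a call that ended without 13 of the 16 libraries in turn (adjusted p between 0.0520 and 0.102), every WT library among them. The blood and lymphatic endothelium list summed to 472 to 570.0 CPM in WT UVB and 564 to 659 CPM in WT control libraries. In KO skin it summed to 535 to 713 CPM in UVB and 491 to 603 CPM in control libraries. The part of endothelial RNA in the Ccl21a values was not tested.

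Ccr7 was at 1.44, 2.40, 3.74 and 4.42 CPM in KO UVB and 1.12, 1.23, 1.22 and 2.27 CPM in KO control libraries, which overlapped. It rose in KO skin by 1.05 ± 0.37 (adjusted p = 0.0397), and the call ended without KO UVB library 4 (adjusted p = 0.102) or KO control library 1 (0.0814), 2 (0.101) or 3 (0.0983). Without KO UVB library 3 the value was 0.94 ± 0.40 (adjusted p = 0.0954), and without 3 and 4 it was 0.40 ± 0.41 (adjusted p = 0.477). In WT skin the value was -0.04 ± 0.36 (adjusted p = 0.951). Ccl19, the other Ccr7 ligand, averaged 2.34 ± 2.05, 2.03 ± 0.318, 2.88 ± 0.530 and 3.02 ± 0.330 CPM in KO UVB, KO control, WT UVB and WT control skin. Ccl25, a ligand of Ccr9 known from thymus and gut, averaged 5.85 ± 0.693, 6.98 ± 1.39, 6.66 ± 1.37 and 6.04 ± 0.291 CPM in that order. Neither Ccl19 nor Ccl25 was called in any comparison with all libraries, though Ccl19 was called lower in KO UVB than in WT UVB skin without KO UVB libraries 3 and 4, and all KO control libraries of Ccl19 lay below all WT control libraries (-0.58 ± 0.39, adjusted p = 0.684).

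Cxcl14, a ligand made by epithelia without injury, fell in WT skin. It stood at 33.7, 28.9, 46.8 and 44.3 CPM in WT UVB and 59.0, 69.1, 59.1 and 61.6 CPM in WT control libraries, beside 64.2, 83.2, 56.6 and 38.3 CPM in KO UVB and 69.0, 71.9, 62.6 and 49.6 CPM in KO control libraries. WT UVB libraries lay below WT control libraries, while KO libraries overlapped. The WT change was -0.70 ± 0.20 (adjusted p = 0.0245), and it was lost on leaving out library 1 or 2 of WT UVB (adjusted p = 0.0721 and 0.0926) or library 1 or 2 of WT control (0.0520 and 0.0656). The KO change was -0.06 ± 0.20 (adjusted p = 0.830). DESeq2 and limma voom called Cxcl14 higher in KO UVB than in WT UVB skin, at 0.66 ± 0.21 (adjusted p = 0.0446) and 0.90 ± 0.18 (adjusted p = 0.0102).

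Cxcr6, a receptor of tissue-resident T cells, fell in WT skin. It stood at 6.28, 3.46, 3.20 and 5.50 CPM in WT UVB and 14.5, 7.75, 12.5 and 14.2 CPM in WT control libraries, and at 3.98, 2.57, 7.34 and 9.88 CPM in KO UVB and 4.81, 6.10, 8.47 and 10.5 CPM in KO control libraries. WT UVB libraries lay below all WT control libraries, and KO libraries overlapped. The WT change was -1.42 ± 0.37 (adjusted p = 0.0154), which ended without WT UVB library 3 (adjusted p = 0.0522), and the KO change was -0.32 ± 0.37 (adjusted p = 0.540). That KO change was called at -1.17 ± 0.38 (adjusted p = 0.0303) without KO UVB libraries 3 and 4 and at -1.1001 ± 0.36 (adjusted p = 0.0233) by limma voom. Of 18 T and NK cell markers, 3 rose and 5 fell in KO skin (17.2% and 15.1% of all genes). In WT skin 1 rose and 6 fell (10.2% and 8.60%), and none of the markers was at 0 in all libraries. Their sum was 238 to 378 CPM in KO UVB, 257 to 344 in KO control, 247 to 323 in WT UVB and 289.5 to 381 CPM in WT control libraries. The part of T cell RNA in the Cxcr6 and Ccr10 values was not tested.

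Cxcl16, the membrane-bound ligand of Cxcr6, was at 43.1, 42.4, 61.5 and 57.1 CPM in KO UVB and 33.6, 45.3, 37.0 and 41.7 CPM in KO control libraries, which overlapped. It rose in KO skin by 0.37 ± 0.13 (adjusted p = 0.0439). The value was 0.28 ± 0.13 (adjusted p = 0.128) without KO UVB library 3 and 0.12 ± 0.13 (adjusted p = 0.508) without 3 and 4. The call also ended without KO UVB library 4 (adjusted p = 0.0765), KO control library 1 (0.0909) or 3 (0.108), or WT control library 4 (0.0534). In WT skin the value was 0.27 ± 0.13 (adjusted p = 0.180).

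Cx3cl1, the membrane-bound ligand of Cx3cr1, averaged 10.4 ± 1.30, 12.7 ± 3.29, 12.0 ± 0.449 and 14.2 ± 2.21 CPM in KO UVB, KO control, WT UVB and WT control skin and was called in no comparison. Of the 45 members tested, 8 fall outside the named set: Ccl1, Ccl4, Ccl17, Ccr4, Ccr9, Cx3cr1, Xcl1 and Xcr1. None of these was called by edgeR with all libraries. In KO UVB against KO control skin, Cx3cr1, the fractalkine receptor of monocytes, was called lower once library 3 was left out, and Ccr4, Xcl1 and Xcr1 were called lower without libraries 3 and 4 and by limma voom. DESeq2 called Ccr4 lower (-0.94 ± 0.38, adjusted p = 0.0386) and Ccl4 higher (2.42 ± 0.93, adjusted p = 0.0298) there, and limma voom called Xcl1 lower in WT UVB against WT control skin (-0.96 ± 0.29, adjusted p = 0.0216). Of the members below the filter, Ccr1l1 had 24 reads in all and Cxcl17 had 26.

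**Figure D4:**
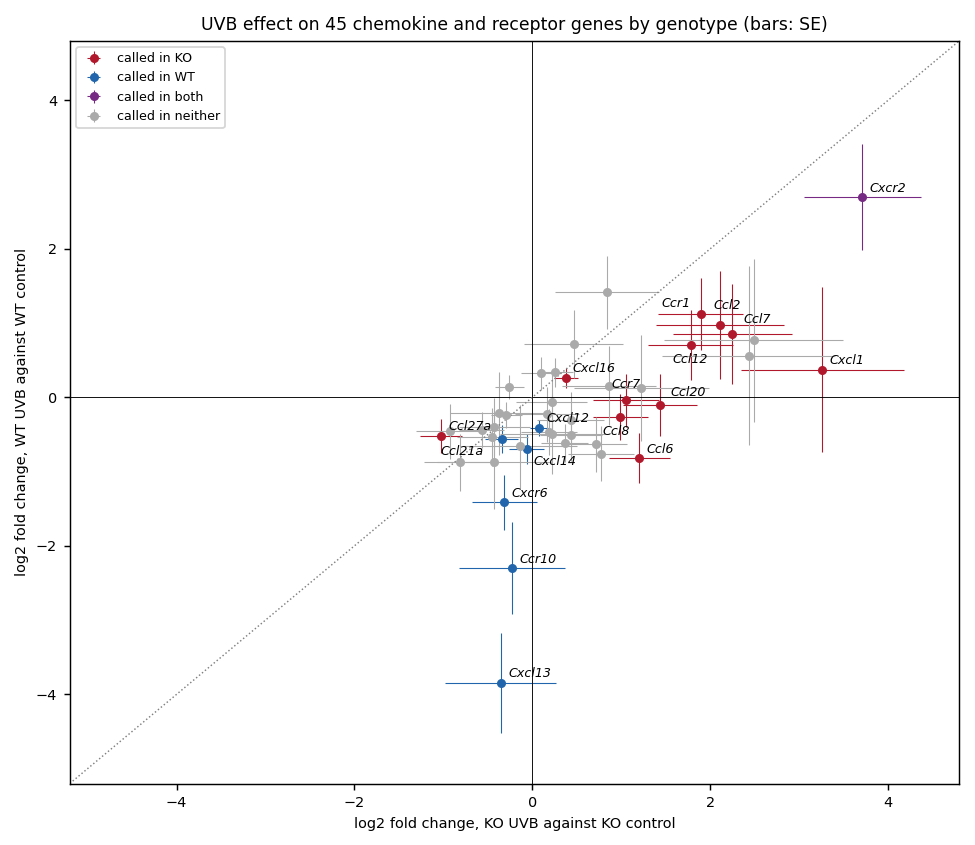
Each point is 1 of the 45 tested members, placed by its log2 fold change of UVB against control in KO skin (x axis) and in WT skin (y axis), with bars of 1 standard error; the dotted line marks equal change. Cxcr2 lies at 3.71 and 2.69, the genes called in KO skin lie mostly right of 0, and Cxcl13 lies lowest at -3.84 in WT skin.

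Whether the UVB change differed between genotypes was tested as an interaction, in which the log2 change in WT skin is subtracted from that in KO skin. edgeR called none of the 45 members, where 0.0228% of all genes were called, and 11 members had an unadjusted p under 0.05 (12.8% of all genes). The largest values among these were Cxcl13 at 3.49 ± 0.90 (adjusted p = 0.167) and Ccr10 at 2.08 ± 0.86 (adjusted p = 0.328), and the smallest p was that of Ccl6 at 2.02 ± 0.48 (adjusted p = 0.138). Limma voom called Ccl6 and Cxcl12, and DESeq2 called Ccl6 and Cxcl13. For Cxcr2 the interaction was 1.01 ± 0.99 (adjusted p = 0.706), and for Ccl27a it was -0.51 ± 0.33 (adjusted p = 0.530). Of the 45 members 34 had an interaction above 0, where 52.6% of all genes did. Without KO UVB library 3 it was 25 of 45 (51.1% of all genes), and without 3 and 4 it was 20 (49.4%). It was 37 without KO UVB library 1 (49.9%) and 35 without library 2 (51.9%).

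**Figure D5:**
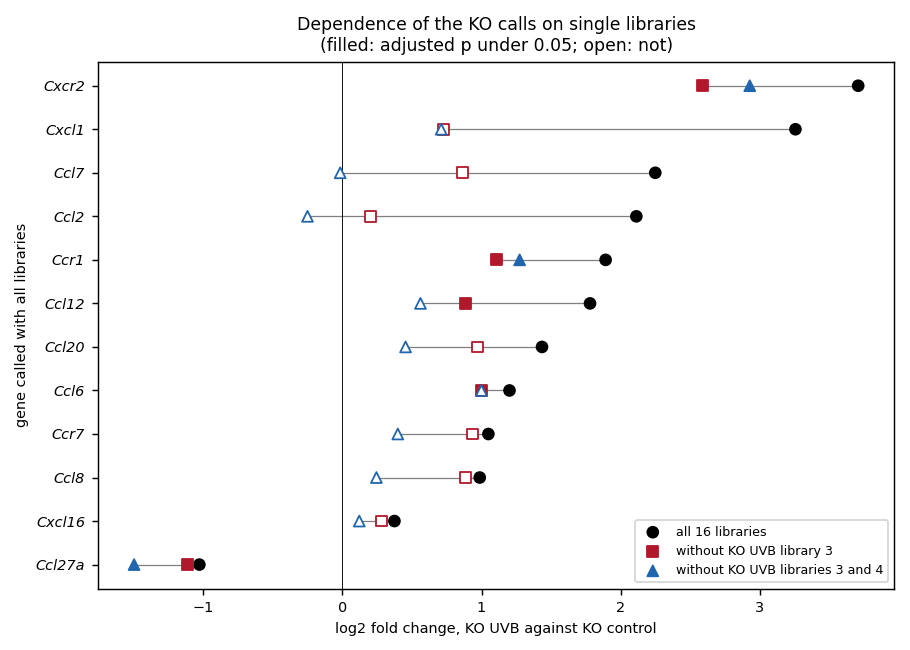
For the 12 members called in KO UVB against KO control skin, symbols give the log2 fold change with all 16 libraries (circles), without KO UVB library 3 (squares) and without libraries 3 and 4 (triangles), filled where the adjusted p was under 0.05. Cxcr2, Ccr1 and Ccl27a are filled throughout, whereas Cxcl1, Ccl2 and Ccl7 move close to or towards 0 when library 3 is left out.

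Genes around the chemokines were read from the same fit. Over all genes tested, 17.2% rose and 15.1% fell in KO skin after UVB, and 10.2% rose and 8.60% fell in WT skin. These shares are the background for the list counts below. No such share is given for fits with libraries left out. Of 12 tested cytokines known to induce chemokines, 7 rose in KO skin and 4 in WT skin, and those 4 were the interleukin-1 family genes Il1f6, Il1f8, Il1f9 and Il1a. Without KO UVB library 3 the KO count was 6 of 13. Il1f6 (IL-36 alpha) gave 4.64 ± 0.56 (adjusted p = 6.11e-05) in KO and 5.18 ± 0.61 (adjusted p = 6.58e-05) in WT skin, and Il1a gave 1.54 ± 0.18 (adjusted p = 3.86e-05) and 1.20 ± 0.18 (adjusted p = 0.000282). The median of the 12 was 1.16 in KO and 0.69 in WT skin.

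Of 20 NF-kB feedback and target genes outside the chemokines, 2 rose in KO skin and 1 fell, both smaller shares than among all genes (17.2% and 15.1%). Ptgs2, the inducible cyclooxygenase, rose by 1.96 ± 0.39 (adjusted p = 0.00193) and Ier3 by 0.65 ± 0.16 (adjusted p = 0.00610), while the inhibitor Nfkbia had -0.50 ± 0.15 (adjusted p = 0.0165). Vcam1, an adhesion molecule for leukocytes, fell by 0.96 on the log2 scale in WT UVB against WT control (SE 0.31, adjusted p = 0.0432) and by 1.32 in KO control against WT control skin (SE 0.32, adjusted p = 0.0472). The list median was 0.19 in KO and -0.04 in WT skin after UVB.

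Of 35 genes that carry the signal of chemokine receptors, 2 rose and 3 fell in KO skin, both smaller shares than among all genes (17.2% and 15.1%). In WT skin 1 rose and 9 fell (10.2% and 8.60% of all genes). Gnai3, an inhibitory G protein subunit, rose by 0.39 ± 0.10 (adjusted p = 0.00770) in KO and 0.45 ± 0.10 (adjusted p = 0.00556) in WT skin, and the kinase gene Prkcb had -0.53 ± 0.13 (adjusted p = 0.00542) and -0.59 ± 0.13 (adjusted p = 0.00494). Rgs2, a brake on G protein signals, had -0.79 ± 0.11 (adjusted p = 0.000242) in WT skin after UVB and was higher in KO UVB than in WT UVB skin by 0.51 ± 0.11 (adjusted p = 0.0458). Median values of the list were 0.05 in KO and -0.34 in WT skin, and without KO UVB libraries 3 and 4 the KO counts were 2 that rose and 8 that fell.

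Atypical receptors take up chemokines without signalling through G proteins. Of 5 tested, Ackr4, which scavenges Ccl19, Ccl21 and Ccl25, fell in KO skin (-0.86 ± 0.12, adjusted p = 0.000165), and Ackr2, a scavenger of inflammatory CC ligands, fell in WT skin (-0.54 ± 0.18, adjusted p = 0.0438). Of the platelet chemokines, Ppbp rose in KO skin by 1.44 ± 0.51 (adjusted p = 0.0420), and neither of the 2 tested was called without KO UVB library 3. Of 12 tested proteases that trim chemokines, 1 rose in KO skin, and 2 rose and 1 fell in WT skin. Mmp8, the neutrophil collagenase, rose by 3.05 ± 0.41 (adjusted p = 0.000123) in KO and 2.30 ± 0.41 (adjusted p = 0.00129) in WT skin. In WT skin Mmp3 rose by 0.73 ± 0.21 (adjusted p = 0.0241) and Mmp9 had -1.68 ± 0.55 (adjusted p = 0.0452).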

How the data were processed

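Poly(A) RNA of 16 skin libraries was sequenced with a directional kit, per the labels' protocols. The deposited values are raw counts per gene, which the authors made with STAR on GRCm39, per the submitters' processing notes. STAR's version was not given in the sources used here. Of its columns, reverse-strand counts were used, since 95.74% of strand-assigned reads lay there. Of 55359 gene IDs 52083 were named from GENCODE of another build, and unnamed IDs held 1.232% of reads. Another 17 columns of a combined table were not used. One edgeR 4.0.16 quasi-likelihood model of the 4 groups (R 4.3.3, filterByExpr, TMM factors 0.94 to 1.073, robust) gave 5 contrasts, adjusted by Benjamini-Hochberg over 17531 genes, and was tested on simulated data. The alternatives were limma 3.58.1 voom, DESeq2 1.42.0, other scalings and filters, unstranded counts, a fit of 2 groups alone, a replicate block and libraries left out. Leaving out KO UVB libraries 3 and 4, and the list counts without them, were chosen after seeing the data. Named members were those called in any contrast, their ligand or receptor partners and the 10 most abundant others; 1 tested member that counts in the totals is not reported here. Members and lists were chosen with earlier results of these data known. Intervals of depth and the floor of 3 counts cover counting error only.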

Additional observations from a re-analysis of the deposited data

Results flagged for a closer look

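In 15 of 152 sets of 4 libraries of a named gene (9.87%), 1 library stood apart, its gap to the nearest other larger than Dixon's critical share of the whole range for 4 libraries. For independent, normally distributed values chance gives about 1 in 20 such sets. Whether the CPM of these genes are of that kind was not tested, so the share is not a measure of an excess. Of these, 5 lay in KO UVB library 3. There Cxcl1 was at 14.5 CPM (0.571 to 0.846 in the other KO UVB libraries), Ccl2 at 72.3 (4.03 to 9.06), Ccl3 at 6.56 (0.114 to 0.364), Cxcr2 at 31.7 (2.60 to 7.42) and Ccr6 at 1.34 (1.05 to 1.09). In KO UVB library 4, Ccl24 was at 34.3 CPM (8.10 to 12.0 in the others).

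In KO control skin, Ccl8 was at 206 CPM in library 3 (262 to 269.9 in the others), Ccr7 at 2.27 in library 4 (1.12 to 1.23) and Cx3cl1 at 7.78 in library 1 (13.99 to 14.6). In WT UVB skin, Cxcl9 was at 32.8 CPM in library 1 (12.6 to 14.999 in the others). In WT UVB library 3, Ccl27a was at 25.5 CPM (17.5 to 18.1) and Cxcr2 at 5.33 (2.18 to 2.67). In WT control skin, Ccl22 was at 6.94 CPM in library 2 (10.6 to 10.98 in the others), Ccl25 at 6.47 in library 3 (5.86 to 5.95) and Cxcl12 at 199.8 in library 3 (234 to 240.4).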

How the results depend on the processing

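In KO UVB against KO control skin, where 12 members were called, a fit of the 2 groups alone called 5 and leaving out 1 library gave 6 to 17 (6 without KO UVB library 3, of which 5 are among the 12; 7 without KO control library 3). In WT UVB against WT control skin, where 7 were called, limma voom called 14, testing every gene with at least 1 read 4, the 2-group fit 12, and the fit without KO UVB libraries 3 and 4 together 11; leaving out 1 library gave 3 to 8 (3 without WT UVB library 2, 4 without WT UVB library 3 or WT control library 1). For KO control against WT control skin (1 call), DESeq2 and the 2-group fit called 2, and at least 1 read, a mean count of at least 100 and unstranded counts called 0; leaving out 1 library gave 0 to 1. For KO UVB against WT UVB skin (1 call), limma voom called 8, DESeq2 7, the fit without KO UVB libraries 3 and 4 called 6, and at least 1 read and the 2-group fit 0; leaving out 1 library gave 0 to 7 (7 without KO UVB library 1 or 4). For the interaction (0 calls), limma voom and DESeq2 each called 2, and leaving out 1 library gave 0. The share of all genes called in each of these settings is not given here, so these member counts have no background beside them. Without KO UVB libraries 3 and 4, Ccl2 (-0.25, adjusted p = 0.531) and Ccl7 (-0.016, adjusted p = 0.977) changed sign. Replicate numbers did not pair the libraries (correlations of deviations -0.403 to 0.219), and with a replicate block the counts were 6 in KO, 6 in WT, 0 in KO control against WT control and 0 in KO UVB against WT UVB skin. Of the other gene values 4646 kept their side of the threshold, 112 lost the call and 65 gained one. Some uncalled values changed sign, such as Ccl3 in KO skin, at -0.46 ± 0.65 without KO UVB library 3. The cause was not tested.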
